A study of Homo sapiens with 4 samples.

Results

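ATF4, DDIT3, CEBPB, CEBPG and ATF5 are 5 genes of the stress-response branch of the basic leucine zipper (bZIP) transcription factors, and the data described here are the ATF3 peaks listed at them. ATF3 is itself a stress-induced bZIP factor of the same family. Peaks from 4 lists were merged where they shared at least 1 bp, and a region was taken where it overlapped a gene or the 20 kb on either side of it in genome build hg19. This gave 14 regions of 44826 in all, with 3 at ATF4, 2 at DDIT3, 5 at CEBPB, 1 at CEBPG and 3 at ATF5. The rule names genes by their role in the stress response and uses no ATF3 height. The genes were nevertheless chosen with earlier results of these data known.

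The study profiled ATF3 by CUT&Tag in SW480, an established colorectal adenocarcinoma line, after 24 h in cystine-restricted medium or in full medium, with 2 libraries for each medium. Cystine is the oxidised form in which most cultured cells import cysteine. In CUT&Tag an antibody, here one against ATF3, tethers a transposase to chromatin, and the DNA cut around the bound protein is sequenced. All 4 libraries came from unmodified cells of this one line. No library made with a control antibody was used here, and the labels do not say whether the 2 libraries of a medium came from separate cultures, so each p-value measures only the spread between these libraries, which may be technical.

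As background, lack of an amino acid and other stresses lead to phosphorylation of the translation initiation factor eIF2α, which lowers general translation while the mRNA of ATF4 is translated more. ATF4 binds DNA as a dimer with C/EBP proteins and activates genes of amino acid supply, and DDIT3, ATF3 and ATF5 are known to be induced downstream of it. The protein of DDIT3 is CHOP, which promotes cell death under lasting stress. CEBPB encodes C/EBPβ, a factor of inflammation, differentiation and stress, and CEBPG encodes C/EBPγ, a short partner that dimerises with ATF4. ATF5 encodes a factor whose mRNA is under the same kind of translational control as that of ATF4.

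Windows around the starts of DDIT3, CEBPG and ATF5 hold, in the RefSeq promoter sequences of GRCh38.p14, short motifs that bZIP dimers are known to bind. The 4 motifs searched, on both strands, were TGACTCA (the AP-1 element), TGACGTCA (the cAMP response element), TGATGCAA (a C/EBP-ATF composite) and TTGCGCAA (the C/EBP palindrome). Sequences of DDIT3 and CEBPG are shown because ATF3 peaks lay across the start or within 1 kb of it in every library and they hold different motifs. Each is the 250 bases before a RefSeq start, 5′ to 3′ on the strand of the gene, with the matched motif in capitals. The DDIT3 sequence is chr12:57520518-57520767 on the minus strand and has TGACTCA beginning 238 bp before the start. The CEBPG sequence is chr19:33373863-33374112 on the plus strand and has TGATGCAA beginning 42 bp before the start.
DDIT3: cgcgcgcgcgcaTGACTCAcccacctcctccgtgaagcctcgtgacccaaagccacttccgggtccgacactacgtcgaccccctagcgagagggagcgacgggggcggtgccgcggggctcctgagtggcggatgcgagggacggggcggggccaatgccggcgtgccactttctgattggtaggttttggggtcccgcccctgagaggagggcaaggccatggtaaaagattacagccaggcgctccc
CEBPG: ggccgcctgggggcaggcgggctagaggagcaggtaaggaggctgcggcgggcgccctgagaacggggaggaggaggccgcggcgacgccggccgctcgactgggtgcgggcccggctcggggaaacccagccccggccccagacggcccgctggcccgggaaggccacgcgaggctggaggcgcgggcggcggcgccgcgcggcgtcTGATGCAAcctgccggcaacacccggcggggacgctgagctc
Over the 300 bp windows around all 35116 RefSeq starts, TGACTCA was found in 4.95%, TGACGTCA in 1.85%, TGATGCAA in 0.866% and TTGCGCAA in 0.151%. The 5 genes had 11 such windows, and 4 of these held a match. They were the 2 windows of DDIT3, which share the same site, 1 of the 2 of CEBPG, and 1 of the 3 of ATF5, with TGACTCA beginning 188 bp before that start. No window of ATF4 or CEBPB held any of the 4 motifs. The share of all windows that held at least 1 of the 4 motifs is not given here. A match describes letters only and was not tested as a binding site. The peaks are placed on hg19, and no sequence was taken from their positions. By distance from the start, the 250 DDIT3 bases fall within the region there, which reached 2264 bp upstream, if both builds share that start.

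The libraries as a whole set the scale for these genes. The lists held 33838 and 29607 peaks on chromosomes 1 to 22 and X in cystine-restricted libraries 1 and 2, against 17447 and 19132 in full-medium libraries 1 and 2, a ratio of means of 1.73 (two-sided exact permutation p = 0.33, the smallest that 6 assignments of 2 against 2 libraries allow). The files give no read totals. The expected tags per position over the genome, recovered from the deposited fold and −log10 p and proportional to the tags kept, were 1.30 and 1.08 in the cystine-restricted libraries and 1.11 and 1.32 in the full-medium libraries. The summit height used below is the recovered number of tags at a peak's summit divided by that genome background. Over the 10331 regions with a peak in every library, the median log2 difference of cystine-restricted minus full medium was 0.53, so each gene is also given relative to that shift.

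At these 5 genes the number of listed peaks, summed over the genes, differed by at most 1 between libraries. The windows held 10 and 11 peaks in the cystine-restricted libraries, 10.5 ± 0.71 on average, against 10 and 10 in the full-medium libraries, 10.0 ± 0 (SD, n = 2 each, ratio 1.05, two-sided exact permutation p = 1.0). CEBPB had 2 and 3 peaks in cystine-restricted medium and 4 and 3 in full medium, while DDIT3 had 2 in each library of either medium. ATF4 had 3 and 2 peaks in cystine-restricted medium and 1 and 3 in full medium. CEBPG had 1 and 2 peaks in cystine-restricted medium and 1 in each full-medium library, and ATF5 had 2 in each cystine-restricted library and 2 and 1 in full medium. At every gene the media shared at least 1 count, so they were not separated. Beyond the 20 kb flanks the next listed region lay 22.4 to 28.7 kb from DDIT3, CEBPB and ATF5 on either side, 23.7 and 90.2 kb from CEBPG, and 91.5 and 51.6 kb from ATF4.

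By presence in the lists, 6 of the 14 regions (42.9%) had a peak in all 4 libraries, against 23.0% of all regions. None was gained, a class of regions with a peak in each cystine-restricted list but in no full-medium list that held 12.7% of all regions. A single region, at CEBPB, was lost, the reverse case, against 0.386% of all regions. The other 7 were mixed, and 5 of them had a peak in 1 library only. These small counts changed with the libraries used. There were 2 regions gained without cystine-restricted library 1, 1 without cystine-restricted library 2, and 1 gained and 3 lost without full-medium library 2. With a library left out a class needs agreement of fewer libraries, so more regions can qualify anywhere in the genome. The shares of all regions under these looser classes are not given here. In 50 kb windows 2 were gained. Regions are not replicates, so these shares carry no p-value.

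**Figure D1:**
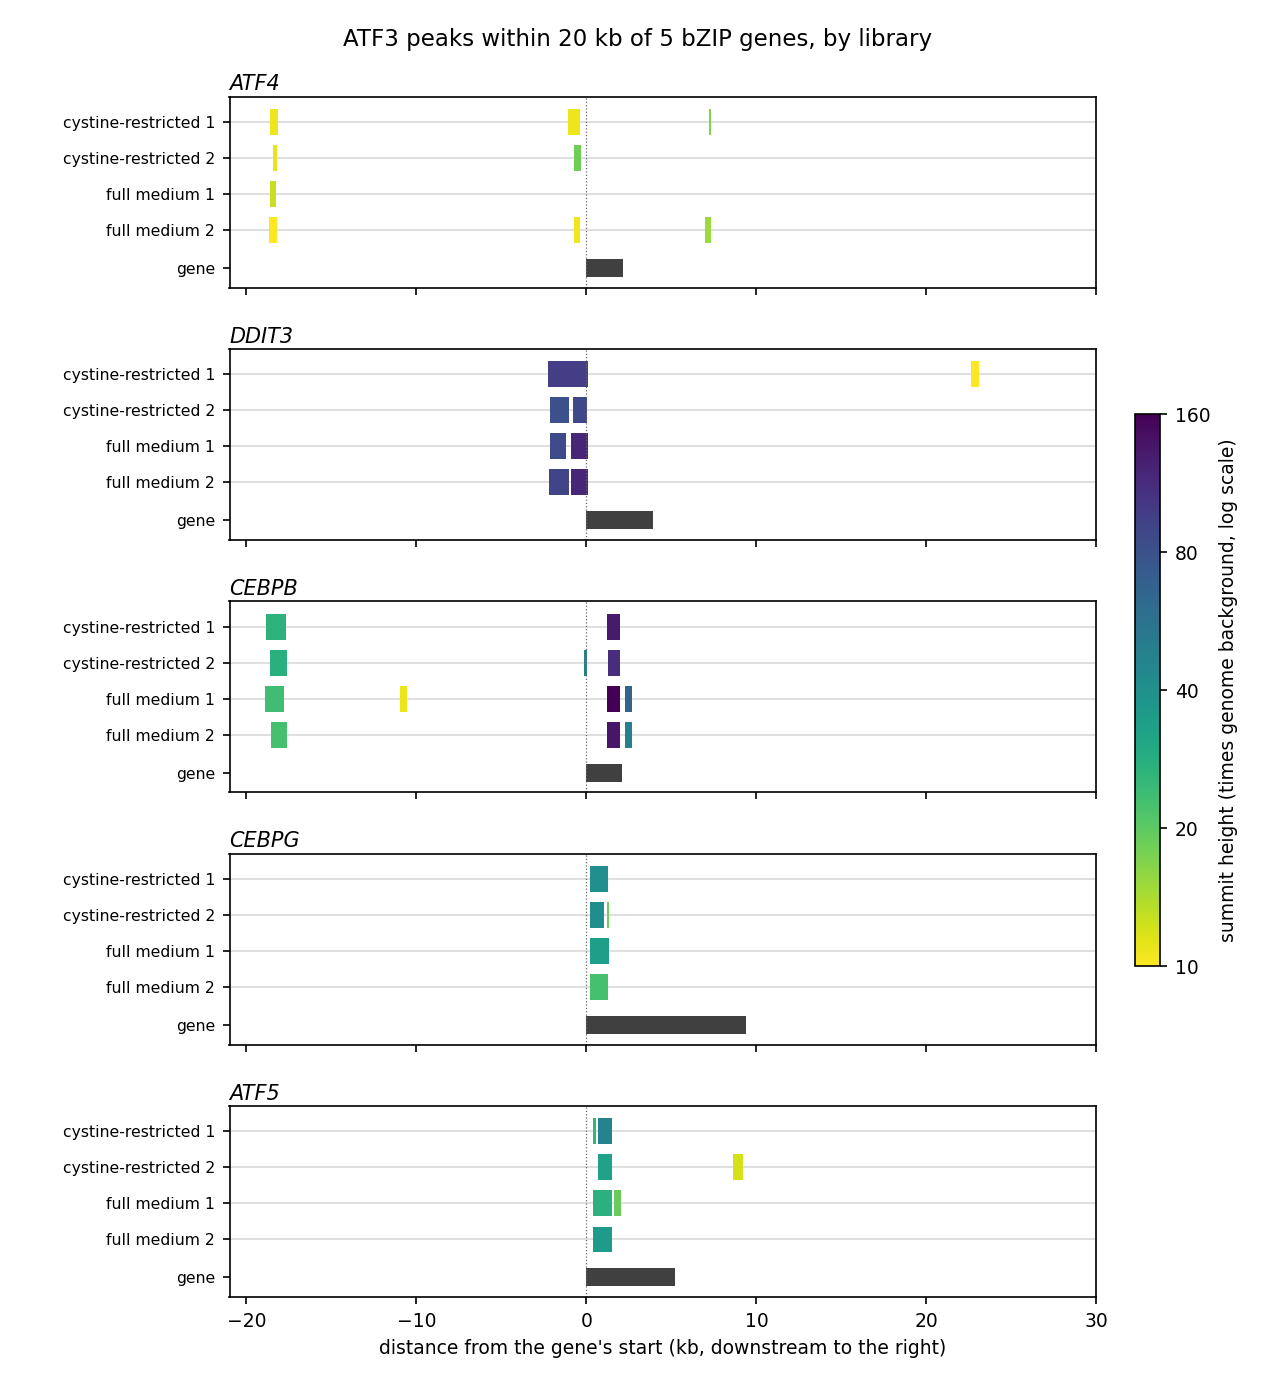
Positions of the listed ATF3 peaks in the 5 gene windows, with distance from the gene's start in kb along the direction of transcription on the x axis and one line per library on the y axis, cystine-restricted libraries above full-medium libraries, over the span of the gene. Regions with a peak in all 4 libraries lie across the start of DDIT3 and inside CEBPG and ATF5. Those in CEBPG and ATF5 begin 184 and 394 bp downstream of the starts of the hg19 spans, which may differ from RefSeq starts. CEBPB has such regions inside it and about 18 kb upstream, while ATF4 has a common peak only about 18 kb upstream.

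Among the 6 common regions, summit heights were higher in both cystine-restricted libraries than in either full-medium library at 2, against 72.8% of all common regions. They were lower in both at 2, against 2.38% of all common regions, and the media overlapped at the remaining 2. The median log2 difference over the 6 was 0.10, against 0.53 over all common regions. This median of few regions was not stable. It was −0.01 without cystine-restricted library 1, 0.0030 without full-medium library 2, −0.46 when libraries were scaled by the median of common regions, 0.01 over the local background, 0.02 by the authors' fold, 0.03 in 5 kb windows and 0.24 in 50 kb windows. None of the 6, and none of the 10331, passed a Benjamini-Hochberg adjusted p of 0.05, and the smallest adjusted p was 0.44 (two-sided exact permutation test over libraries, adjusted over all common regions), since 2 libraries a medium allow no raw p under 0.33. The regions that were lower were the highest ones at DDIT3 and CEBPB, and those that were higher were at CEBPG and about 18 kb upstream of CEBPB.

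DDIT3 (chr12:57910371-57914300, minus strand, 3930 bp) had one of the taller ATF3 regions of the genome at its start. The region, chr12:57914237-57916564, spanned 2328 bp, of which nearly all lay upstream, reaching 2264 bp before the start and 63 bp into the gene. Its summit lay 302 and 303 bp upstream of the start in the cystine-restricted libraries and 321 and 304 bp upstream in the full-medium libraries, so all 4 summits fell just beyond the 250 bases printed above. RefSeq lists MBD6, a gene on the opposite strand, as a neighbour on the same upstream side, and the peak lists do not say which of the genes a region serves.

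The DDIT3 summit held 126 and 95 tags in cystine-restricted libraries 1 and 2, and 131 and 156 tags in full-medium libraries 1 and 2. Divided by the genome background these were heights of 97.1 and 87.6 in cystine-restricted medium and 118 and 118 in full medium. Both cystine-restricted libraries were below both full-medium libraries, and the media did not overlap.

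Mean heights at DDIT3 were 92.4 ± 6.68 in cystine-restricted medium and 118 ± 0.03 in full medium (SD, n = 2 each). The log2 difference was −0.36, with the 4 pairings of a cystine-restricted with a full-medium library between −0.43 and −0.29, against a gap of 0.15 between the 2 cystine-restricted libraries (two-sided exact permutation p = 0.33, adjusted p = 0.44). Relative to the median of all common regions the difference was −0.89. The region was higher than 97.4% of common regions, and 1.25% of common regions had a lower log2 difference.

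The lower height at DDIT3 depended on what it was divided by. The local background, the expected tag level around the summit, was 16.2 and 13.9 tags in cystine-restricted medium and 17.6 and 20.3 tags in full medium, or 12.4 and 12.9 times the genome background in cystine-restricted medium and 15.9 and 15.4 times in full medium. It was therefore lower in cystine-restricted medium too. The settings of the caller are not given, so this level may include tags of the peak itself. Dividing by it could then cancel part of a difference in the peak. Over that local background the log2 difference was −0.05 and the media overlapped, as they did for the authors' fold enrichment, which was 7.40 and 6.43 in cystine-restricted medium and 7.12 and 7.36 in full medium. The authors' −log10 q was 62.7 and 42.0 in cystine-restricted medium and 62.7 and 76.7 in full medium.

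Within its own list the DDIT3 summit ranked 561st and 624th by tags in the cystine-restricted libraries, the top 1.66% and 2.11%, and 171st and 129th in the full-medium libraries, the top 0.980% and 0.674%. The cystine-restricted lists were longer, and ranks from lists of unequal length show no change. In 3 libraries the region was made of 2 peaks. The one farther upstream had its summit 1290 bp before the start with a height of 81.2 in cystine-restricted library 2, and in full medium 1290 bp before the start with 85.9 in library 1 and 1615 bp before it with 91.8 in library 2. Cystine-restricted library 1 listed the whole 2328 bp as 1 peak. The only other DDIT3 region had 13 tags in cystine-restricted library 1 alone, 18686 bp past the end of the gene.

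CEBPB (chr20:48807120-48809227, plus strand, 2108 bp), an intronless gene, had the tallest ATF3 region of the 5 genes, and it lay inside the gene rather than at its start. The region, chr20:48808302-48809078, covered 777 bp and ran 1182 to 1958 bp downstream of the start. Its summit was 1837 and 1829 bp downstream in cystine-restricted medium and 1828 bp downstream in both full-medium libraries. RefSeq places LINC01273, a long non-coding RNA, and CEBPB-AS1, an antisense RNA, within 20 kb.

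At this CEBPB summit 172 and 122 tags were recovered in cystine-restricted libraries 1 and 2, against 176 and 180 in full-medium libraries 1 and 2. The heights were 133 and 113 in cystine-restricted medium and 159 and 137 in full medium. Both cystine-restricted values were below both full-medium values, although cystine-restricted library 1 and full-medium library 2 were close.

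Mean CEBPB heights were 123 ± 14.1 in cystine-restricted medium and 148 ± 15.9 in full medium (SD, n = 2 each). The log2 difference was −0.27, with library pairings from −0.50 to −0.04 (two-sided exact permutation p = 0.33, adjusted p = 0.44). The gap between libraries was 0.24 in cystine-restricted medium and 0.22 in full medium, nearly as large as the difference, and leaving out cystine-restricted library 2 or full-medium library 1 brought it to −0.15 and −0.16. Relative to the median of common regions it was −0.80. The region stood above 98.5% of common regions in height, and 2.08% of them had a lower log2 difference.

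Unlike DDIT3, the CEBPB region kept its direction without overlap on all 5 scales tried, from −0.84 when libraries were scaled by the median of common regions to −0.22 over the local background. The scales are not separate checks, since all start from the same summit tags. The share of all common regions that were lower without overlap (2.38%) is at hand for the genome-background scale only. The authors' fold (−0.22) nearly repeats the local-background scale, and that background may include tags of the peak itself. The authors' fold was 8.35 and 7.44 in cystine-restricted medium and 9.51 and 8.86 in full medium, and the −log10 q was 93.5 and 60.8 in cystine-restricted medium and 105 and 102 in full medium. Of the 517 common regions in the highest 5%, which include those of DDIT3 and CEBPB, 6.77% were lower in both cystine-restricted libraries and 80.7% were higher, with a median log2 difference of 0.47. On the genome-background scale, a lower height in cystine-restricted medium was thus the less usual direction among the tallest regions too. The shares of these tallest regions on the other scales were not counted. Whether the share of 6.77% differs from the 2.38% of all common regions was not tested.

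The lost region lay just past the end of CEBPB, at chr20:48809360-48809790, 133 bp beyond the gene and 281 bp from the tall region. It held 74 and 65 tags in full medium, heights of 66.9 and 49.3 with a mean of 58.1 ± 12.4 (SD, n = 2), and its summits agreed within 1 bp, 2358 and 2359 bp downstream of the start. It was not listed in either cystine-restricted library. Judged by the local background of the tall region beside it and by the weakest −log10 p in each list, a summit of 37 tags in cystine-restricted library 1 or 31 tags in library 2, heights of 28.5 and 28.6, would have reached the level of the list, subject also to the caller's minimum length. A region that is not listed is therefore not one without ATF3.

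At the CEBPB start itself a peak was listed in 1 library. Cystine-restricted library 2 had 51 tags there, a height of 47.0, at chr20:48806982-48807136 with the summit 88 bp upstream. A further region, 10588 to 10986 bp upstream, had 12 tags in full-medium library 1 alone.

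About 18 kb upstream of CEBPB, at chr20:48788221-48789509, all 4 libraries had a peak. It held 35 and 30 tags in cystine-restricted medium and 26 and 30 in full medium, heights of 27.0 and 27.7 in cystine-restricted medium against 23.5 and 22.8 in full medium. The media did not overlap in height, and here cystine-restricted medium was the higher. Means were 27.3 ± 0.50 in cystine-restricted medium and 23.1 ± 0.52 in full medium (SD, n = 2 each), a log2 difference of 0.24 (two-sided exact permutation p = 0.33, adjusted p = 0.44) that was −0.29 relative to the median of common regions. The media overlapped without scaling (0.21), over the local background (0.12) and by the authors' fold (0.12). Scaled by the median tags of common regions the difference was −0.33 with the media apart, so its direction depends on the scaling.

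CEBPG (chr19:33864236-33873592, plus strand, 9357 bp) had a single region, chr19:33864420-33865574, running 184 to 1338 bp downstream of the start. The summit lay 733 and 738 bp downstream in cystine-restricted medium and 724 and 736 bp downstream in full medium. RefSeq gives CEBPG a length of 8978 bp in GRCh38.p14, so the start used here may not be that of the sequence printed above. Whether the summits fall within the printed bases was therefore not determined. PEPD, on the opposite strand, is a RefSeq neighbour within 20 kb.

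The CEBPG summit held 53 and 45 tags in cystine-restricted libraries 1 and 2, and 38 and 30 in full-medium libraries 1 and 2, which gave heights of 40.8 and 41.5 in cystine-restricted medium and 34.3 and 22.8 in full medium. Both cystine-restricted libraries were above both full-medium libraries, and they lay closer together than the full-medium pair did. Means were 41.2 ± 0.48 in cystine-restricted medium and 28.6 ± 8.19 in full medium (SD, n = 2 each), a log2 difference of 0.56 with pairings from 0.25 to 0.87 (two-sided exact permutation p = 0.33, adjusted p = 0.44).

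That CEBPG difference was within 0.03 of the median of all common regions, and 52.7% of them had a lower one. It was 0.26 without full-medium library 2 and 0.86 without full-medium library 1. Scaled by the median of common regions it was −0.01, and over the local background it was 0.11 with the media overlapping. The authors' fold was 9.90 and 11.2 in cystine-restricted medium and 10.1 and 8.45 in full medium. Its local background was 4.46 and 3.12 tags in cystine-restricted medium and 2.88 and 2.67 tags in full medium. By fold enrichment the CEBPG region exceeded the other common regions of the 5 genes in every library except full-medium library 2, where CEBPB had 8.86. Cystine-restricted library 2 listed a second, lower peak in the region, with its summit 1237 bp downstream and a height of 18.5.

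ATF5 (chr19:50431959-50437193, plus strand, 5235 bp) had its common region, chr19:50432353-50433454, 394 to 1495 bp downstream of the start, with summits between 1339 and 1357 bp. RefSeq gives ATF5 a length of 5030 bp in GRCh38.p14 and 3 start windows, so the start used here may not be the nearest one. Distances to the RefSeq starts were not measured. IL4I1 and NUP62, both on the opposite strand, are RefSeq neighbours within 20 kb. The summit held 60 and 35 tags in cystine-restricted libraries 1 and 2, against 30 and 46 in full-medium libraries 1 and 2. Heights were 46.2 and 32.3 in cystine-restricted medium and 27.1 and 34.9 in full medium, and the media overlapped.

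Mean ATF5 heights were 39.3 ± 9.86 in cystine-restricted medium and 31.0 ± 5.50 in full medium (SD, n = 2 each). The log2 difference of 0.33 had pairings from −0.11 to 0.77 (two-sided exact permutation p = 0.67, adjusted p = 0.74), so it was no larger than the spread between libraries. It was 0.07 without cystine-restricted library 1, 0.15 without full-medium library 1, 0.51 without full-medium library 2 and 0.59 without cystine-restricted library 2. Relative to the median of common regions the ATF5 difference was −0.20. The authors' fold was 8.22 and 7.11 in cystine-restricted medium and 6.19 and 8.12 in full medium. Cystine-restricted library 1 listed a further peak in the region, 414 bp downstream of the start with a height of 26.2. A peak of 21 tags in full-medium library 1 followed 1680 bp downstream of the start, and one of 13 tags in cystine-restricted library 2 lay 3390 bp past the gene's end.

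ATF4 (chr22:39916569-39918691, plus strand, 2123 bp), the factor whose translation the eIF2α pathway controls, had a tallest peak of only 18.5 times the genome background in any library, the lowest such maximum of the 5 genes. The region nearest its start, chr22:39915487-39916228, lay 341 to 1082 bp upstream. It held 14 and 20 tags in cystine-restricted libraries 1 and 2, heights of 10.8 and 18.5, and 14 tags in full-medium library 2, a height of 10.6, and was not listed in full-medium library 1. The authors' −log10 q was 3.98 and 8.85 in cystine-restricted medium and 4.61 in full-medium library 2. Both cystine-restricted heights were above the only full-medium height, which was close to that of cystine-restricted library 1. With no value for full-medium library 1 the media were not compared there. RefSeq lists MIEF1, MIURF, LOC105373035 and RPS19BP1 as neighbours within 20 kb of ATF4. The peak lists do not say which of these genes a region serves.

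The common ATF4 region, chr22:39897880-39898422, lay 18147 to 18689 bp upstream, with 14 and 12 tags in cystine-restricted medium and 14 and 13 in full medium. Its heights were 10.8 and 11.1 in cystine-restricted medium and 12.7 and 9.86 in full medium, a log2 difference of −0.03 (two-sided exact permutation p = 1.0, adjusted p = 1.0). The full-medium libraries enclosed both cystine-restricted ones. Relative to the median of common regions the difference was −0.56. Only 6.38% of common regions were lower in height. The remaining region, 4858 bp past the end of ATF4, had 22 tags in cystine-restricted library 1 and 20 in full-medium library 2.

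**Figure D2:**
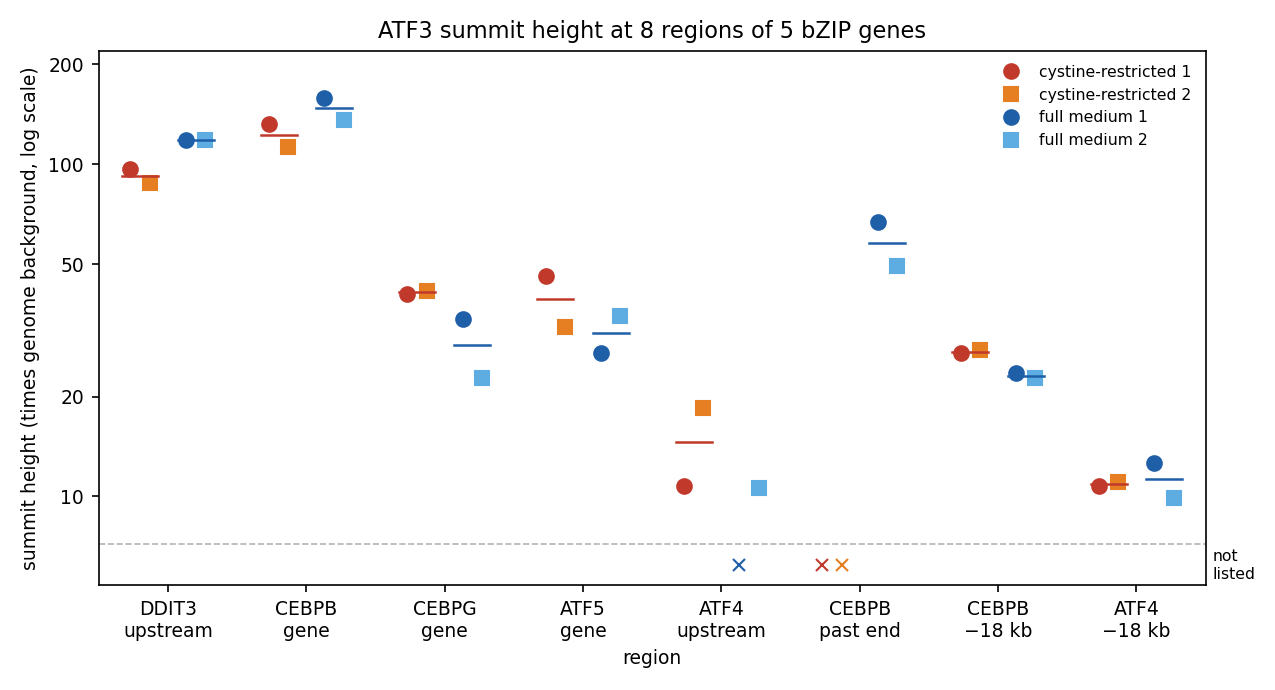
Summit height, in times the genome background on a log axis, of the highest region of each gene and of other described regions, with one point per library and cystine-restricted libraries left of full-medium libraries; points under the dashed line mark libraries in which the region was not listed. Heights at DDIT3 (97.1 and 87.6) and CEBPB (133 and 113) in cystine-restricted medium lie below those in full medium (118 and 118 at DDIT3, 159 and 137 at CEBPB), while those at CEBPG lie above.

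In order of height in cystine-restricted medium the genes ran CEBPB with a mean of 123, DDIT3 with 92.4, CEBPG with 41.2, ATF5 with 39.3 and ATF4, by its region near the start, with 14.6. In full medium the order was CEBPB with 148, DDIT3 with 118, ATF5 with 31.0 and CEBPG with 28.6, and ATF4 had a value in only 1 library. CEBPG and ATF5 overlapped in both media, so their order was within the spread between libraries. CEBPB was above DDIT3 in every library, and both were above CEBPG and ATF5 in every library.

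**Figure D3:**
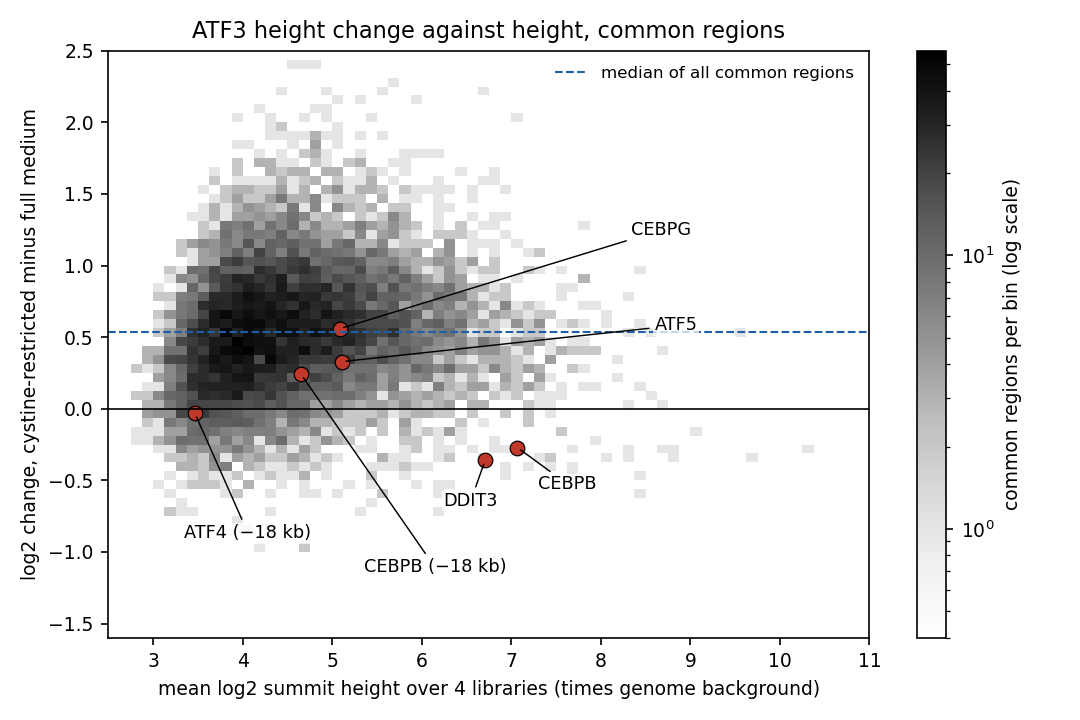
Log2 difference in summit height, cystine-restricted minus full medium, against the mean log2 height over the 4 libraries, for the 10331 common regions (grey, shaded by the number of regions in a bin on a log scale) and the 6 at these genes (red). The dashed line is the median of 0.53. DDIT3 and CEBPB lie at −0.36 and −0.27 below it among the tall regions, and CEBPG lies on it at 0.56.

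Ratios of tags between 2 genes within a library need no scaling between libraries. The tags at the DDIT3 summit were 2.38 and 2.11 times those of the CEBPG summit in cystine-restricted libraries 1 and 2, and 3.45 and 5.20 times in full-medium libraries 1 and 2. The media did not overlap, and the log2 difference of the ratio was −0.92 (two-sided exact permutation p = 0.33). CEBPB had 3.25 and 2.71 times the tags of CEBPG in cystine-restricted medium and 4.63 and 6.0 times in full medium, a log2 difference of −0.83 (exact permutation p = 0.33).

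Against ATF5 the DDIT3 summit had 2.10 and 2.71 times the tags in cystine-restricted medium and 4.37 and 3.39 times in full medium, a log2 difference of −0.69 (exact permutation p = 0.33). CEBPB had 2.87 and 3.49 times the tags of ATF5 in cystine-restricted medium and 5.87 and 3.91 times in full medium, a log2 difference of −0.60 (exact permutation p = 0.33). In each of these 4 ratios the media were separated, but the ratios reuse the same 4 summits and are not separate observations. How often the media separate in ratios between other regions was not counted. In tags, the taller pair of genes was thus lower relative to the other pair in both cystine-restricted libraries.

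Within each pair the ratios overlapped between media. CEBPB had 1.37 and 1.28 times the tags of DDIT3 in cystine-restricted medium and 1.34 and 1.15 times in full medium (log2 difference 0.09, exact permutation p = 0.67). CEBPG had 0.883 and 1.29 times the tags of ATF5 in cystine-restricted medium and 1.27 and 0.652 times in full medium (log2 difference 0.23, exact permutation p = 0.67). All 6 ratios among the 4 genes were computed, and with raw p of at least 0.33 none could pass any adjustment.

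**Figure D4:**
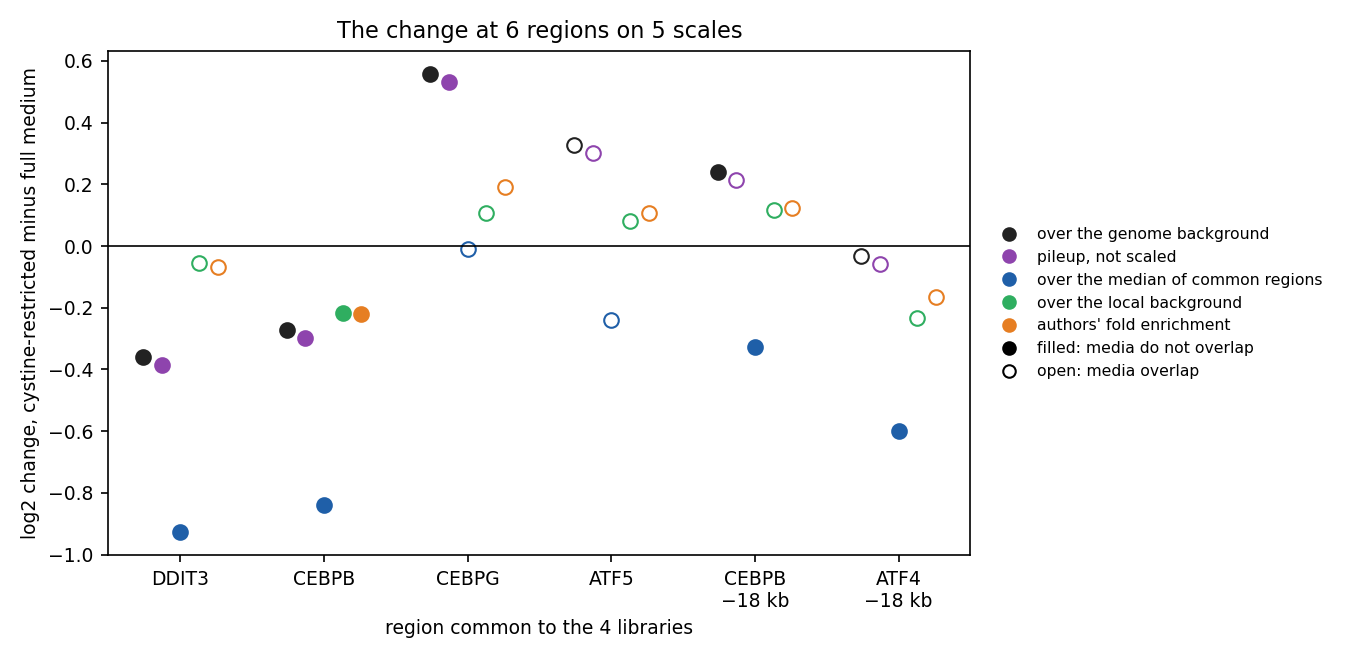
Log2 difference in summit height, cystine-restricted minus full medium, at the 6 common regions on 5 scales, with filled points where the media did not overlap and open points where they did. CEBPB stays below 0 with the media apart on every scale, DDIT3 is at −0.05 over the local background with the media overlapping, and CEBPG and ATF5 change sign when libraries are scaled by the median of common regions.

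Scaling decided the direction at 3 of the 6 common regions. When each library was divided by its own median tags over common regions, the difference was −0.93 at DDIT3, −0.84 at CEBPB, −0.60 at the upstream ATF4 region, −0.33 at the upstream CEBPB region, −0.24 at ATF5 and −0.01 at CEBPG. Without any scaling it was −0.39 at DDIT3, −0.30 at CEBPB, 0.53 at CEBPG and 0.30 at ATF5. DDIT3, CEBPB and the upstream ATF4 region were below 0 on all 5 scales, and the plot of the 5 scales shows that only CEBPB was free of overlap on each of them. How many other common regions are free of overlap on each scale was not counted. The cause of the general shift of 0.53 was not tested.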

How the data were processed

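The data are 4 peak lists of an ATF3 CUT&Tag experiment in SW480 cells, deposited as one list per library and placed on hg19. The submitters' processing notes name MACS2 2.2.7.1, BWA 0.7.17, fastp 0.19.7 and bcl2fastq 2.17, without their order or role; the settings of MACS2 were not given in the sources used here. Each deposited peak has a fold enrichment (a ratio of summit pileup to expected local pileup), a −log10 p and a −log10 q per the narrowPeak layout, and a score of 10 times the −log10 q. These fold, −log10 and score values are the authors' own and were used to describe or rank peaks within a list; the fold was set between libraries only as one of 5 scales.

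Summit pileup and local background were recovered together from the deposited fold, read as (pileup + 1)/(background + 1), and the deposited −log10 p, read as a Poisson tail; a whole-number pileup fitted 100% of peaks to within 0.1% in every list. The lowest background in a list was taken as the genome background, which scales the libraries. The lowest listed pileup was 7 and 6 tags in the cystine-restricted libraries and 7 and 7 in the full-medium libraries, and peaks below a list's threshold have no value. Height is pileup over genome background, and the highest peak of a library stands for a region. Libraries were grouped by the medium in the labels and compared by two-sided exact permutation tests with Benjamini-Hochberg adjustment over all 10331 common regions. The steps were tested on simulated data. Python 3.11.15, numpy 2.4.6, pandas 2.3.3, scipy 1.17.1 and matplotlib 3.10.9 were used.

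The genes, lists and tests were chosen with earlier results of these data known. All 5 genes are named; described in full are regions that overlap a gene or lie within 1 kb of it, gained or lost regions, and the highest region of each window. Alternatives were windows of 5 and 50 kb, an equal number of top peaks per library, a −log10 q minimum of 5, a reciprocal overlap of 50%, other scalings, leaving out each library, and the replicate number as a block. Gene spans come from hg19 coordinates; RefSeq GRCh38.p14 gave only names, strands, neighbours and promoter sequences. Other genes of the pathway and genes with a like pattern were not analysed here, since no hg19 annotation was used. Same-numbered libraries did not deviate together over common regions (r = 0.01).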

Additional observations from a re-analysis of the deposited data

How the results depend on the processing

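The log2 differences at DDIT3 (−0.36) and CEBPB (−0.27) could not move with a −log10 q minimum of 5, an equal number of top peaks or the replicate block. They were negative under the other alternatives run, but DDIT3 was −0.05 over the local background and −0.07 by the authors' fold, with the media overlapping. With an equal number of top peaks for every list (17447), the peak ratio was 0.75 in place of 1.05 and 2 regions were lost. With 50 kb windows 10 regions were common and 2 gained. The median log2 difference at common regions was 0.24 with the −log10 q minimum, equal top peaks or 50 kb windows, 0.03 with 5 kb windows, 0.01 over the local background and 0.02 by the fold. Scaled by the median of common regions, the median log2 difference was −0.46 in place of 0.10, CEBPG was −0.01 (−0.010) and ATF5 −0.24. A reciprocal overlap of 50% left 5 common, 0 gained and 1 lost. Leaving out each library gave a peak ratio of 1.0 to 1.1, 0 to 2 gained (2 without cystine-restricted library 1), 1 to 3 lost (3 without full-medium library 2) and a median log2 difference of −0.01 to 0.15, with −0.013 without cystine-restricted library 1 and 0.0030 without full-medium library 2; DDIT3 stayed between −0.43 and −0.29, CEBPB between −0.39 and −0.15, CEBPG between 0.26 and 0.86 and ATF5 between 0.07 and 0.59. The replicate block, which pairs same-numbered libraries, gave a ratio of 1.05, with 3 gained and 3 lost in pair 1 and 2 gained and 2 lost in pair 2; the numbers were not shown to pair the libraries. With a library left out or in single pairs, gained and lost need agreement of fewer libraries, so more regions can qualify anywhere in the genome. Leaving the pileup without scaling, an alternative chosen after seeing the data, kept every direction. No value is at hand for a peak under a list's lowest pileup of 6 or 7 tags, and 2 libraries a medium allow no exact p under 0.33.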
